A study of Mus musculus with 8 samples.

Results

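The 10 protein-coding genes described here flank *Mib1* and *Gata6* on mouse chromosome 18 and were followed in RNA of the embryonic outflow tract (OFT), the segment of the heart that joins the ventricles to the great arteries. They were taken by name (*Thoc1*, *Rock1*, *Greb1l*, *Esco1*, *Snrpd1* and *Abhd3* before *Mib1*, and *Rbbp8*, *Cables1*, *Riok3* and *Npc1* after *Gata6*), not by a rule on level or change. The choice was made with earlier results of these data known. Of these 10 genes, 9 had values among the 14608 genes of the table, and *Abhd3* was not analysed here. The data hold 8 libraries of OFT from embryonic day 11.5. The label Control is carried by 4 of them and the label Mib1V943F/+ Gata6STOP/+ by the other 4, called mutant below. Mutant embryos carried 2 germline alleles, each heterozygous, on opposite copies of the chromosome. Mib1V943F changes an amino acid in a RING domain of MIB1, and Gata6STOP carries a premature stop in *Gata6*. The control libraries are titled WT, and the alleles and strain of the control embryos are not otherwise given in the sources used here. Each library pooled 3 individuals per the labels, while the methods of the study describe the pools differently.

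MIB1 is an E3 ubiquitin ligase that activates NOTCH signalling from the cell that presents the ligand, and GATA6 is a transcription factor needed for the OFT and its valves. Genes close to a mutated locus are passed on together with it, since recombination rarely separates neighbours. The neighbours studied here have unrelated functions. They serve RNA export, splicing and ribosome maturation (*Thoc1*, *Snrpd1*, *Riok3*), chromosome cohesion, DNA repair and the cell cycle (*Esco1*, *Rbbp8*, *Cables1*), the cytoskeleton (*Rock1*), organ formation (*Greb1l*) and lipid handling (*Abhd3*, *Npc1*).

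In the genome build GRCm38, *Mib1* spans 10725548 to 10818704 and *Gata6* spans 11052064 to 11085635 of chromosome 18, both on the plus strand and 233359 bp apart. Before *Mib1* lie *Thoc1* (9957906 to 9995489, plus strand), *Rock1* (10064401 to 10182045, minus), *Greb1l* (10325177 to 10562940, plus), *Esco1* (10566507 to 10610352, minus), *Snrpd1* (10617775 to 10642079, plus) and *Abhd3* (10642092 to 10706771, minus). After *Gata6* lie *Rbbp8* (11633276 to 11745221, plus), *Cables1* (11839220 to 11945630, plus), *Riok3* (12128741 to 12157387, plus) and *Npc1* (12189692 to 12236400, minus). Of the 10 genes, *Abhd3* is the nearest to *Mib1*, at 18.78 kb, and *Snrpd1* is the nearest one with values, at 83.47 kb. After *Gata6* the nearest of the genes is *Rbbp8*, at 547.6 kb. *Npc1* is the farthest, at 1104.0 kb. Some of the genes overlap a transcript on the opposite strand: *Thoc1* shares 2424 bp with *Usp14*, *Npc1* shares 967 bp with *Rmc1* and 4908 bp with *Gm15956*, *Cables1* shares 1650 bp with *Gm6277*, and *Rbbp8* holds an antisense transcript of 2365 bp. The library kit keeps the strand, but the sources used here do not say whether the counting used it, so reads in these overlaps cannot be assigned with certainty. Exact matches of 60 bases, the length of a read, to transcripts of another gene were absent from the longest coding transcript of 8 of the 9 genes and covered 1.77% of that of *Cables1*.

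Values are CPM, reads of a gene relative to the reads of its library, scaled by the authors with the TMM method. They were compared with limma on log2(CPM + 0.5). P-values were adjusted over all 14608 genes by the Benjamini-Hochberg method. The reads on listed genes, read from the step between low values, numbered 10669420 in control replicate 2 and between 21064242 and 30469165 in the other 7 libraries. The genes described here had between 195 and 3805 reads in a library. For the mutated genes, *Mib1* was at 122 ± 15.6 CPM in control and 128 ± 6.62 CPM in mutant libraries (SD, n = 4 each), with 0.07 as its log2 fold change (95% interval -0.12 to 0.26, adjusted p = 0.746 in limma). *Gata6* was at 262 ± 18.5 and 249 ± 36.1 CPM (SD, n = 4 each), with -0.08 as its log2 fold change (95% interval -0.29 to 0.14, adjusted p = 0.752 in limma). The paper states that quantitative PCR put *Gata6* mRNA in these mutants at the reduced level predicted. On the scale used here, the level of 1 copy in place of 2 would be -0.997 for *Gata6*, below its interval. The reason for this difference between the measures was not tested. Neither gene separated the groups, so the directions given here rest on the labels. Each of the 9 cell types looked for had listed markers, 0 of them at 0 CPM, while the epithelial markers *Epcam*, *Cdh1* and *Foxa2* had no value here. The sum of 7 cardiomyocyte markers ran from 21010 to 24370 CPM in control and from 16160 to 19790 CPM in mutant libraries, without overlap, and 6 of the 7 had an unadjusted p under 0.05 and were lower. In such bulk tissue, fewer cells of a type and less RNA per cell cannot be told apart, and the part of this difference in the values of the flanking genes was not tested. The sums of the other 8 marker lists overlapped between the groups.

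All 9 flanking genes with values were transcribed in every library, and none of them passed the adjusted threshold. In limma, 0 of the 9 had an adjusted p under 0.05, as was so for 0 of all listed genes (0.0%). At the same adjusted threshold, the paper reports differentially expressed genes for this contrast from an edgeR count model, which was not run here. At an unadjusted p under 0.05 there were 2 of 9, *Thoc1* and *Rbbp8*, both higher in the mutant libraries, where 12.1% of all listed genes reached this level in either direction and 5.45% were higher. The log2 fold change was above 0 in 8 of the 9 genes and below 0 in *Greb1l*, and ran from -0.15 to 0.25 with a median of 0.08, while the median over all listed genes was 0.001. Without control replicate 2, 0 of 9 reached an unadjusted p under 0.05, as did 1121 of all listed genes, against 1763 with every library. Without mutant replicate 2 there was 1 of 9, *Thoc1*, and 1330 of all listed genes. Without control replicate 3 there were 2 of 9, and 1172 of all listed genes. These 2 were *Rbbp8* (unadjusted p = 0.0491 in limma, higher) and *Greb1l* (unadjusted p = 0.0462 in limma, lower). Control and mutant values stood fully apart in 1 of 9 genes, *Rbbp8*, beside 7.1% of all listed genes (3.2% higher and 3.9% lower in mutant libraries). The 95% intervals lay between -0.35 (lower bound of *Greb1l*) and 0.46 (upper bound of *Rbbp8*). On this scale, a level that fell to that of 1 copy in place of 2 would give between -0.99 (*Rock1*) and -0.96 (*Cables1*), which no interval reached.

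**Figure D1:**
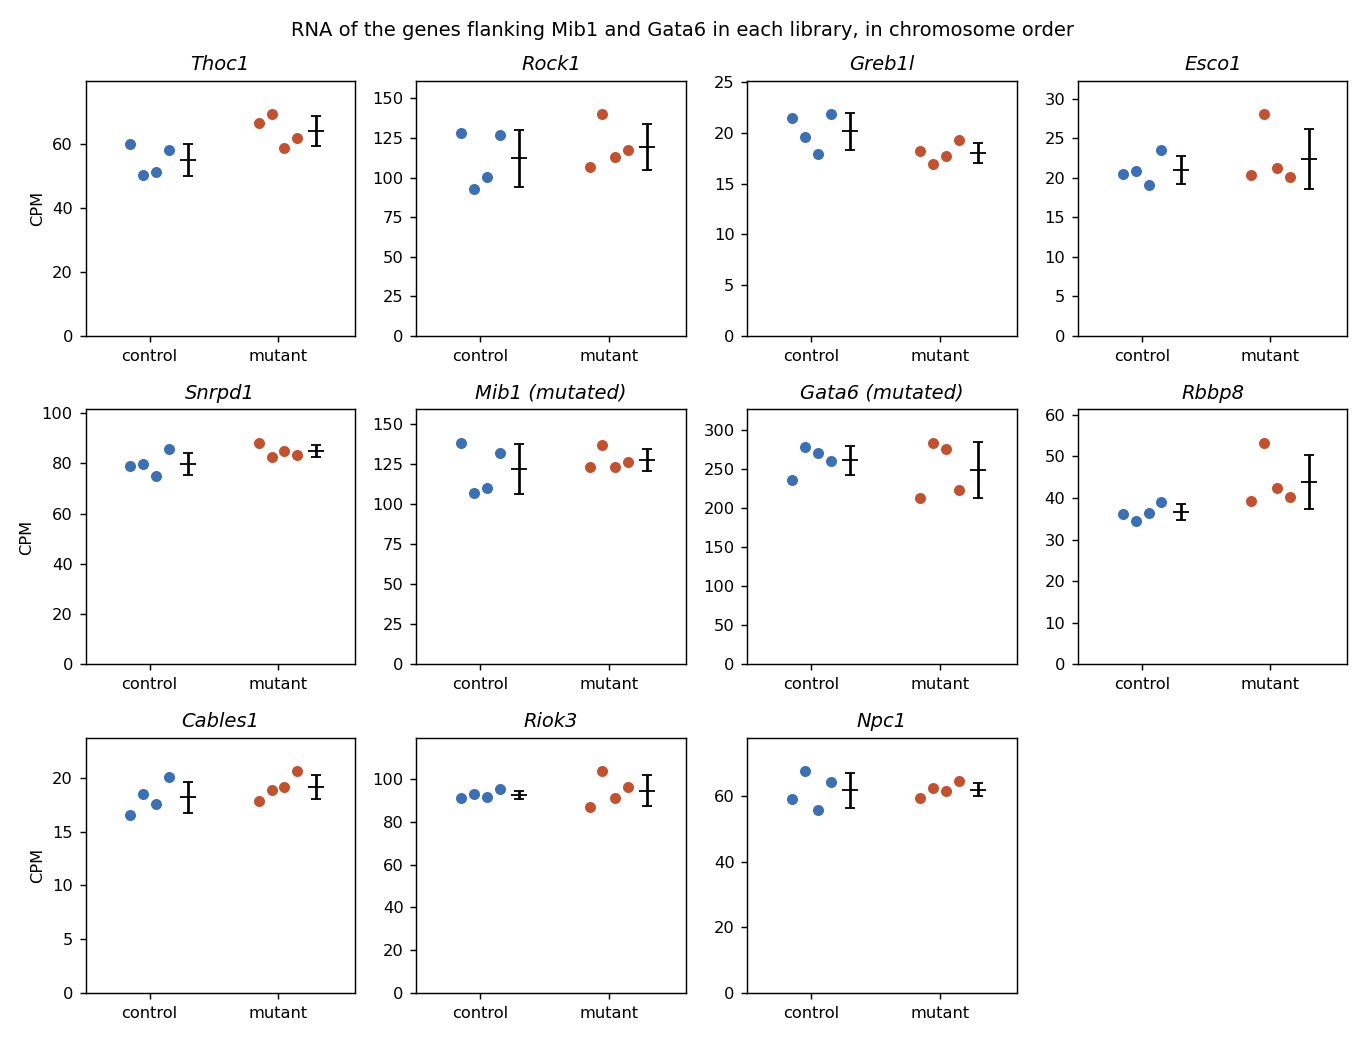
CPM of the 9 flanking genes and of the mutated genes *Mib1* and *Gata6* in the 4 control (blue) and 4 mutant (red) libraries, ordered by replicate number within a group; the black mark and bar give the mean and SD, and each vertical axis starts at 0. *Rbbp8* is the gene whose groups do not overlap, with 39.1 CPM in its highest control and 39.2 CPM in its lowest mutant library.

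Among the genes of RNA handling, *Thoc1* had the larger difference. It encodes a subunit of the THO complex, which couples transcription to mRNA export. *Thoc1* had 60.02, 50.3, 51.0 and 58.1 CPM in the control libraries (replicates 1 to 4) and 66.4, 69.2, 58.6 and 61.9 CPM in the mutant libraries (replicates 1 to 4). The lowest mutant library, replicate 3, lay below the highest control library, replicate 1, so the groups overlapped. Its mean was 54.8 ± 4.93 CPM in control and 64.0 ± 4.68 CPM in mutant libraries (SD, n = 4 each). On the log2 scale the difference was 0.22 (standard error 0.08, 95% interval 0.04 to 0.40). The adjusted p was 0.346 in limma (unadjusted 0.0186), and the exact permutation test over the 70 relabellings gave p = 0.0571, where 0.0286 is the smallest value it can give. *Snrpd1*, which encodes the core spliceosomal protein Sm D1, had 78.9, 79.8, 74.9 and 85.8 CPM in the control libraries (replicates 1 to 4). In the mutant libraries (replicates 1 to 4) it had 88.2, 82.7, 85.04 and 83.4 CPM. The mutant libraries lay within the upper part of the control range except replicate 1, which was above it, and the log2 fold change was 0.09 (95% interval -0.05 to 0.23, adjusted p = 0.574 in limma). *Riok3* encodes an atypical kinase of the RIO family that acts in the late maturation of the small ribosomal subunit. It ranged from 91.0 to 95.2 CPM in control and from 87.1 to 103.6 CPM in mutant libraries. The mutant values lay on both sides of the narrower control range, with a log2 fold change of 0.03 (95% interval -0.12 to 0.17, adjusted p = 0.892 in limma).

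Among the genes of cohesion, repair and the cell cycle, *Rbbp8* was higher in each mutant library than in any control library. It encodes CtIP, which starts the resection of broken DNA ends together with the MRE11 complex and binds BRCA1 and RB. *Rbbp8* had 36.2, 34.5, 36.3 and 39.1 CPM in the control libraries (replicates 1 to 4) and 39.2, 53.3, 42.3 and 40.3 CPM in the mutant libraries (replicates 1 to 4). The groups were 0.0957 CPM apart at their nearest point, and mutant replicate 2 stood above the other mutant libraries. Its mean was 36.6 ± 1.90 CPM in control and 43.8 ± 6.46 CPM in mutant libraries (SD, n = 4 each). On the log2 scale the difference was 0.25 (standard error 0.10, 95% interval 0.04 to 0.46, adjusted p = 0.370 in limma, unadjusted 0.0252), and the exact permutation test gave p = 0.0286, the smallest it can give. Without mutant replicate 2 the log2 fold change was 0.15 (unadjusted p = 0.0528, adjusted p = 0.553 in limma), and without control replicate 2 it was 0.22 (unadjusted p = 0.0599, adjusted p = 0.667 in limma). *Esco1* encodes an acetyltransferase that acts on the cohesin subunit SMC3. It had 20.5, 20.9, 19.1 and 23.5 CPM in the control libraries (replicates 1 to 4) and 20.4, 28.0, 21.2 and 20.1 CPM in the mutant libraries (replicates 1 to 4). Mutant replicate 2 was again the highest, and the other mutant libraries lay within the control range. The log2 fold change of *Esco1* was 0.08 (95% interval -0.17 to 0.33, adjusted p = 0.781 in limma) and became -0.03 without mutant replicate 2. *Cables1* encodes an adaptor that links cyclin-dependent kinases to the kinases that phosphorylate them. It ranged from 16.6 to 20.1 CPM in control and from 17.9 to 20.6 CPM in mutant libraries, largely the same range, with a log2 fold change of 0.07 (95% interval -0.12 to 0.27, adjusted p = 0.745 in limma).

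*Rock1* encodes a protein kinase that raises actomyosin contraction by acting on myosin phosphatase and LIM kinases. It had 128, 92.8, 100.4 and 127 CPM in the control libraries (replicates 1 to 4) and 106.5, 140.0, 113 and 118 CPM in the mutant libraries (replicates 1 to 4). The control libraries were split between replicates 1 and 4, which were high, and replicates 2 and 3, which were low, and the mutant values overlapped both. Its log2 fold change was 0.10 with the widest interval of the 9 genes (-0.15 to 0.35, adjusted p = 0.742 in limma). *Greb1l* encodes a paralogue of the estrogen-regulated GREB1 and is needed for the development of the kidney and inner ear. It had 21.4, 19.5, 17.9 and 21.8 CPM in the control libraries (replicates 1 to 4) and 18.2, 16.9, 17.7 and 19.3 CPM in the mutant libraries (replicates 1 to 4). Control replicate 3 lay within the mutant range and the other control libraries above it. *Greb1l* was at 20.2 ± 1.83 and 18.03 ± 0.9745 CPM (SD, n = 4 each), with -0.15 as its log2 fold change (95% interval -0.35 to 0.04, adjusted p = 0.498 in limma). *Npc1* encodes the transporter that moves cholesterol out of late endosomes and lysosomes. It ranged from 55.7 to 67.5 CPM in control and from 59.4 to 64.5 CPM in mutant libraries, so the mutant range lay inside the control range. The log2 fold change of *Npc1* was 0.01 (95% interval -0.15 to 0.17, adjusted p = 0.961 in limma). *Abhd3*, a hydrolase that acts on phosphatidylcholines with medium-length chains, was not analysed here.

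**Figure D2:**
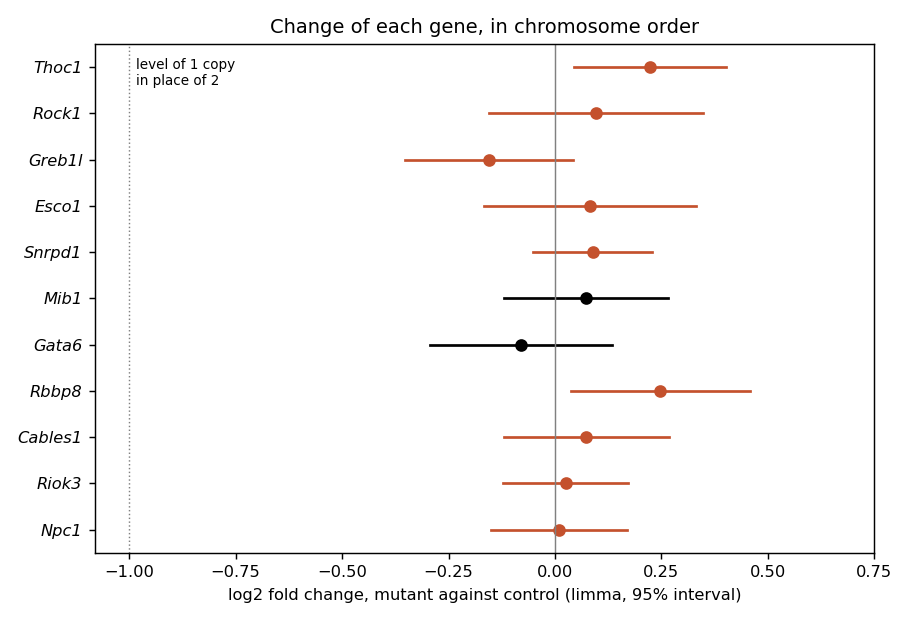
Log2 fold change of each gene (mutant against control, limma) with its 95% interval, in chromosome order; red marks the 9 flanking genes, black the mutated genes, and the dotted line at -1 a level of 1 copy in place of 2. The intervals of *Thoc1* (0.04 to 0.40) and *Rbbp8* (0.04 to 0.46) lie above 0, and the others cross it.

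To see the genes beside their surroundings, every listed gene up to 2 Mb from *Mib1* or *Gata6* was taken by position, which gave 23 genes, the 9 flanking genes and 14 others. The log2 fold change was above 0 in 20 of the 23, with a median of 0.06. It was above 0 in 222 of the 377 genes on the rest of chromosome 18 (58.9%, median 0.04) and in 50.4% of all listed genes. Of the 23 genes, 0 passed the adjusted threshold and 3 had an unadjusted p under 0.05, beside 12.1% of all listed genes. The third of these was *Impact*, a translational regulator that is imprinted in the mouse, whose span lies 1870.0 kb from that of *Gata6* (12955852 to 12992950). *Impact* had 53.1, 44.9, 46.0 and 52.6 CPM in the control libraries (replicates 1 to 4) and 58.1, 70.1, 55.7 and 59.5 CPM in the mutant libraries (replicates 1 to 4). Its groups did not overlap, with a log2 fold change of 0.30 (95% interval 0.11 to 0.50, adjusted p = 0.270 in limma, unadjusted 0.00522). The first listed genes beyond the outer ends of the group, *Colec12* before *Thoc1* and *Ankrd29* after *Npc1*, had log2 fold changes of 0.02 and 0.05 (adjusted p = 0.912 and 0.850 in limma). Split by side, the 5 genes before *Mib1* had a median log2 fold change of 0.09 and the 4 after *Gata6* one of 0.05. Change did not follow distance in order: *Snrpd1* and *Esco1*, at 83.47 and 115.2 kb, had 0.09 and 0.08, *Greb1l*, at 162.6 kb, had -0.15, and *Rbbp8* and *Thoc1*, at 547.6 and 730.1 kb, had 0.25 and 0.22.

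**Figure D3:**
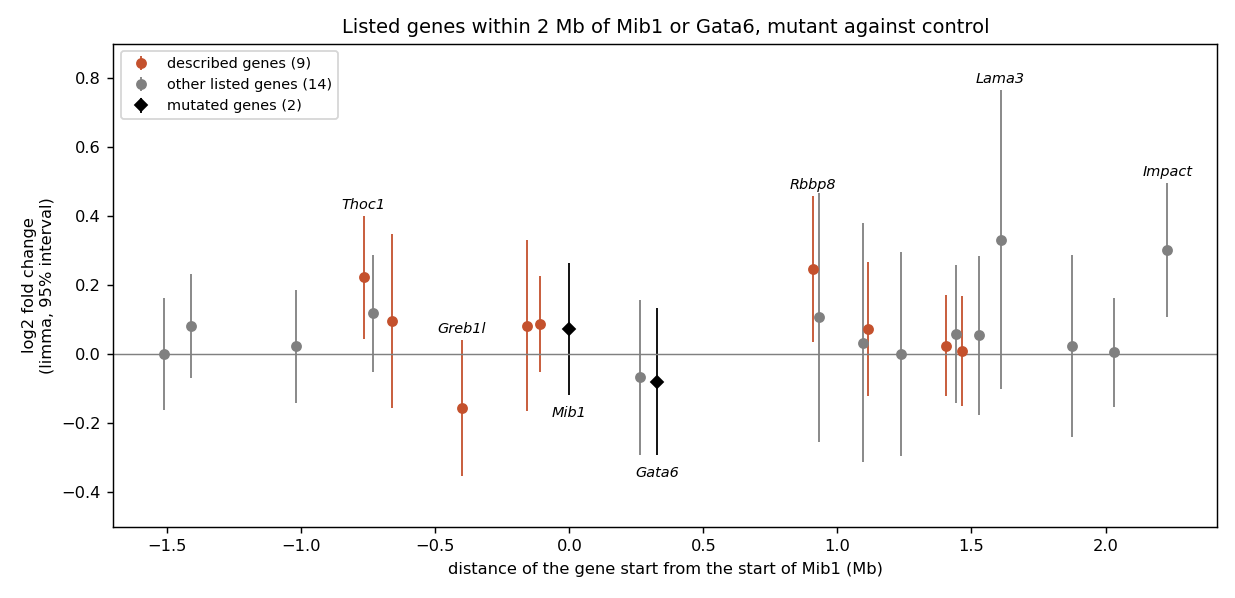
Log2 fold change (mutant against control, limma, 95% interval) of the 25 listed genes in the region, 23 neighbours and the mutated *Mib1* and *Gata6*, against the distance of each gene's start from the start of *Mib1* in Mb. Red marks the 9 described genes, grey 14 others and black the mutated genes; *Thoc1*, *Rbbp8* and *Impact* are the neighbours whose intervals lie above 0.

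The choice of genes did not use their base composition, and 4 of the 9 were very poor in GC. The GC content of the transcripts was 38.2% in *Rock1*, 38.9% in *Thoc1*, 39.8% in *Esco1* and 41.4% in *Rbbp8*, and only 1.75%, 2.77%, 4.21% and 8.34% of all listed genes had a lower one. The median of the 9 genes was 43.8%, against 49.9% over all listed genes, with *Npc1* at 47.1%, *Greb1l* at 48.3% and *Cables1*, the highest, at 58.0%. The other 14 genes within 2 Mb had a median of 47.5%. The libraries differed in the level of GC-poor genes. The 25% of all listed genes with the lowest GC content had a median log2 deviation of 0.18 in mutant replicate 2, -0.18 in control replicate 2 and -0.10 in control replicate 3, and between -0.01 and 0.04 in the other 5 libraries. The 4 flanking genes with the lowest GC content were likewise high in mutant replicate 2. *Rock1*, *Thoc1* and *Rbbp8* were also low in control replicate 2, while *Esco1* was near its mean there. *Rock1*, *Thoc1*, *Esco1* and *Rbbp8* were above their own means by 0.29, 0.22, 0.37 and 0.41 on the log2 scale in mutant replicate 2, and were at -0.30, -0.23, -0.05 and -0.20 in control replicate 2. *Snrpd1* and *Riok3* also belong to the 25% with the lowest GC content and followed this less. They were at 0.0075 and 0.148 in mutant replicate 2, and at -0.0441 and -0.0109 in control replicate 2. Mutant replicate 2 was the highest mutant library for 5 of the 9 genes, and for 36.9% of all listed genes. The same library was the lowest for 2 of the 9 genes, and for 35.6% of all listed genes. Control replicate 4 was the highest control library for 6 of the 9 genes, and for 23.2% of all listed genes. Once the trend of each library with GC content was removed, the log2 fold change became 0.08 for *Thoc1* (unadjusted p = 0.147, adjusted p = 0.618 in limma) and 0.13 for *Rbbp8* (unadjusted p = 0.109, adjusted p = 0.578 in limma). *Rock1* and *Esco1* then had -0.05 each, *Cables1* 0.17 and *Greb1l* -0.18. The log2 fold change was then above 0 in 4 of the 9 genes (median -0.026) and in 13 of the 23 genes within 2 Mb (median 0.004). *Impact* remained at 0.24 (unadjusted p = 0.00282, adjusted p = 0.193 in limma).

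**Figure D4:**
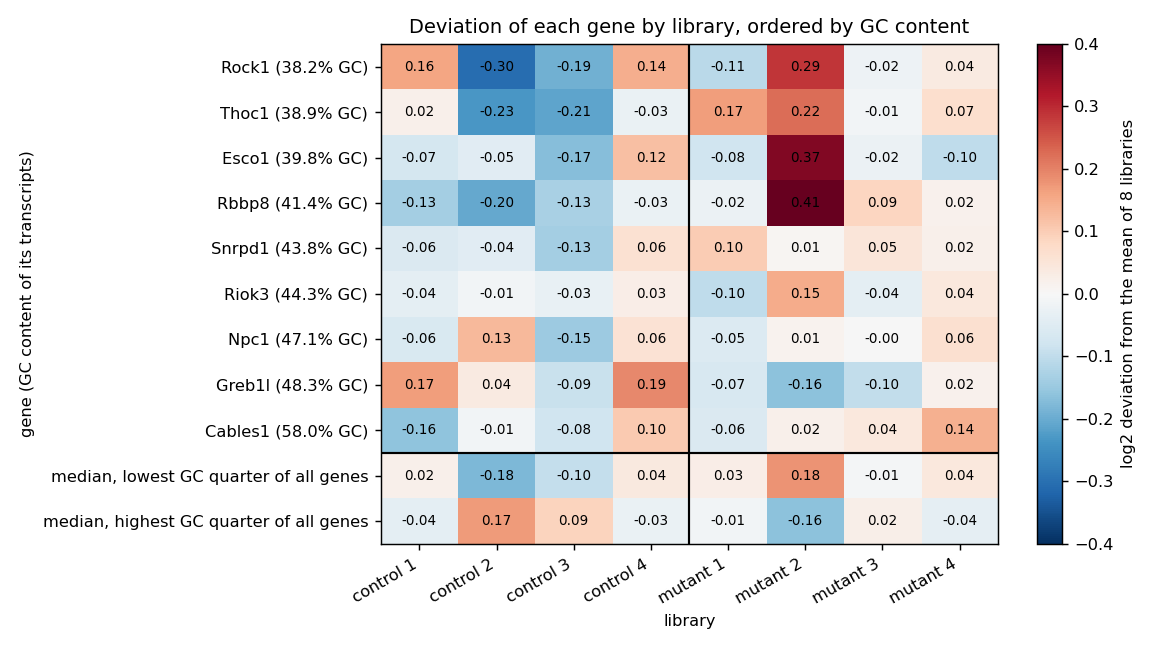
Log2 deviation of each flanking gene from its mean over the 8 libraries, by library, with genes ordered from the lowest to the highest GC content of their transcripts; the bottom rows give the median deviation of the 25% of all listed genes with the lowest and the 25% with the highest GC content. The 4 genes with the lowest GC content are at 0.22 to 0.41 in mutant replicate 2, where the 25% of all genes with the lowest GC content are at 0.18.

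The paralogues and partners of these proteins lie elsewhere in the genome, and 72 were looked at. In limma, 0 passed the adjusted threshold, and 5 (6.94%) had an unadjusted p under 0.05, 4 of them higher and 1 lower, beside 12.1% of all listed genes. For *Thoc1*, 0 of 8 partners in the THO complex and mRNA export reached an unadjusted p under 0.05, and their log2 fold changes ran from -0.11 to 0.22 (*Thoc2*, the largest subunit). For *Rbbp8*, 0 of 8 partners did, and theirs ran from -0.10 to 0.11, with *Mre11a*, *Rad50* and *Nbn* at 0.02, 0.02 and 0.09. All 11 cohesin genes set beside *Esco1* had a log2 fold change above 0 (median 0.16), of which 2 had an unadjusted p under 0.05. These were *Wapl*, which releases cohesin from chromosomes (0.24, adjusted p = 0.380 in limma), and *Pds5b*, which binds cohesin (0.23, adjusted p = 0.412 in limma). The cohesin genes were GC-poor as well (median 41.5%), and with the GC trend removed their median was 0.03, with 8 of 11 above 0.

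The other partners at an unadjusted p under 0.05 were *Clns1a*, *Riok1* and *Myl9*. *Clns1a* encodes a chaperone of Sm proteins, the family of *Snrpd1*. It had 71.0, 66.2, 69.4 and 68.8 CPM in the control libraries (replicates 1 to 4) and 79.3, 82.1, 76.2 and 77.9 CPM in the mutant libraries (replicates 1 to 4). The groups did not overlap, with a log2 fold change of 0.20 (adjusted p = 0.281 in limma) that was 0.17 with the GC trend removed. They did not overlap in *Riok1*, *Myl9* or *Wapl* either, nor in *Lamp1*, a partner set beside *Npc1* (unadjusted p = 0.162 in limma). In *Wapl* the groups were only 0.0076 CPM apart, between control replicate 1 and mutant replicate 1. That is less than 1 read, which is 0.036 and 0.0467 CPM in these libraries. Of the 72 partners, 3 were thus fully apart and higher and 2 fully apart and lower, beside 7.1% of all listed genes in either direction. *Riok1*, a kinase related to *Riok3*, had 0.23 (adjusted p = 0.347 in limma), and 0.15 with the GC trend removed. *Myl9*, a myosin light chain of smooth muscle and non-muscle cells downstream of ROCK kinases, had -0.17 (adjusted p = 0.380 in limma), and -0.09 with the GC trend removed. *Rock2*, the paralogue of *Rock1*, had a log2 fold change of 0.11 and *Greb1*, the paralogue of *Greb1l*, one of -0.18 (adjusted p = 0.598 and 0.718 in limma). *Npc2*, which hands cholesterol to NPC1, had -0.04 (adjusted p = 0.815 in limma).

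The genes differed far more from each other than between genotypes. Per kilobase of merged exons, which removes the effect of length but not of isoform use, *Snrpd1* had the highest level of the 9, at 40.1 ± 2.10 CPM per kb over the 8 libraries (SD, n = 8). It overlapped with *Gata6* (39.3 ± 4.21, SD, n = 8), while *Mib1* was at 11.4 ± 1.05 (SD, n = 8). *Riok3* followed at 8.53 CPM per kb, apart from its neighbours in this order. *Thoc1* (6.66), *Rock1* (6.40), *Npc1* (5.46), *Cables1* (4.87), *Esco1* (4.26) and *Rbbp8* (3.21) came next, and the ranges over libraries of each gene and the next among these 6 overlapped. *Greb1l* had the lowest level, at 1.73 ± 0.161 CPM per kb (SD, n = 8), below every value of *Rbbp8*. Within groups, the median SD of log2 values of the 9 genes was 0.11, against 0.15 over all listed genes. It ran from 0.06 in *Snrpd1* to 0.20 in *Rock1*.

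**Figure D5:**
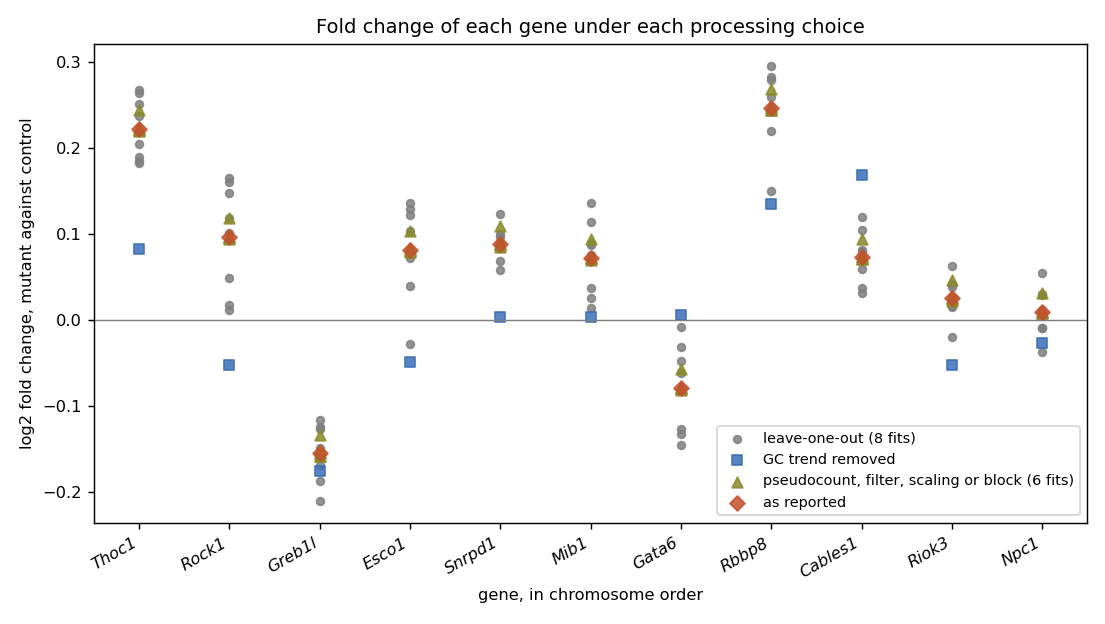
Log2 fold change of each gene (mutant against control) as reported (diamonds) and under each processing choice: 8 fits without 1 library (grey circles), GC trend removed (blue squares), and 6 fits with another pseudocount, filter, scaling or replicate block (triangles). *Thoc1* and *Rbbp8* stay above 0 and *Greb1l* below 0 in all of them, while *Rock1*, *Esco1*, *Riok3*, *Npc1* and the mutated *Gata6* fall on both sides.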

How the data were processed

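Poly(A) RNA of 8 OFT libraries (4 control, 4 mutant) was sequenced by the authors from a directional kit with single-end 60 base reads. Per the methods and the labels, the authors trimmed adapters with cutadapt, quantified with RSEM on GRCm38, required 1 CPM in 3 or more samples for each gene, and deposited CPM normalized by TMM in edgeR. No column was left out. The low values of each library were whole multiples of 1 read (100.0% of values within 0.01 reads), between 0.0325 and 0.0948 CPM.

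Groups were compared with limma 3.58.1 on R 4.3.3 (lmFit, eBayes with trend) on log2(CPM + 0.5), two-sided, over 14608 genes, with p-values adjusted by Benjamini-Hochberg (threshold 0.05). The fit was tested on simulated data without a GC trend and with changes larger than those of the genes described here. That test therefore does not cover changes as small as theirs. P-values over these 8 libraries measure the spread between pools. Exact permutation tests used 70 relabellings. Positions, exons and transcript GC content came from GENCODE M21 (GRCm38), which held 14600 of the genes. The GC trend was a loess curve per library (span 0.5) over 14594 genes. The members and lists were chosen with earlier results of these data known. Named genes were the 10 members, *Mib1*, *Gata6*, other genes within 2 Mb at an unadjusted p under 0.05, the nearest listed gene on each outer side and up to 6 partners by p. *Thoc2*, *Mre11a*, *Rad50*, *Nbn*, *Rock2*, *Greb1*, *Npc2* and *Lamp1* were named outside that rule, after their values were seen. Alternatives were other pseudocounts, a filter, other scalings, a replicate block, GC correction and leaving out each library.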

Additional observations from a re-analysis of the deposited data

Results flagged for a closer look

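In *Esco1*, mutant replicate 2 stood apart from the other mutant libraries at 28.0 CPM, where the next highest was 21.2 CPM. Its gap to that library took a share of 0.859 of the range of the group, above the 95% critical value of Dixon's test for 4 samples. This was the only one of the 38 groups tested (19 genes in 2 groups) that stood out, and chance alone gives about 1 in 20 such groups. The 25% of all listed genes with the lowest GC content, to which *Esco1* belongs, had its highest median deviation in the same library (0.18 on the log2 scale).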

How the results depend on the processing

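Over the 16 alternatives run, 0 of the 9 genes, *Mib1* and *Gata6* had an adjusted p under 0.05 (lowest 0.271), and 15 of their 176 fold changes changed direction. With the GC trend of each library removed, the log2 fold change changed sign in *Rock1* (-0.0515), *Esco1* (-0.0484), *Riok3* (-0.052), *Npc1* (-0.0262) and *Gata6* (0.0068), with or without the replicate block. In that fit 0 of the 9 genes, 1 of the 23 genes within 2 Mb and 3 of the partners (2 with the replicate block) had an unadjusted p under 0.05. Of all genes, 1620 reached that level there (1484 with the replicate block). The median of the 9 genes was -0.026. Without 1 library, *Npc1* ran from -0.0371 to 0.0546, *Esco1* from -0.0277 to 0.136 and *Riok3* from -0.0197 to 0.0635. The number at an unadjusted p under 0.05 ran from 0 (without control replicate 2) to 2 of the 9 genes, from 1 to 4 of the 23, from 1 to 10 of the partners and from 1121 (without control replicate 2) to 2163 of all genes. *Thoc1* lost that level without control replicate 2 (0.0547) or 3 (0.0585), and *Rbbp8* without control replicate 2 (0.0599) or mutant replicate 2 (0.0528), while *Greb1l* reached it without control replicate 3 (0.0462). Scaling to the plain total of each library gave 8 such partners and 1901 such genes in all. With the replicate block there were 3 such partners and 1304 such genes in all, against 1763 without it. Libraries with the same number did not deviate together (correlations from -0.19 to 0.03, each below that with another number), so they were not taken as pairs. The planned count models on whole reads were not run. The cause of these changes was not tested.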
